A study of Mus musculus with 8 samples.

Results

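The 8 genes described here encode alternative forms of 4 nuclear-encoded subunits of cytochrome c oxidase, the last enzyme of the mitochondrial respiratory chain. They are Cox6a2 and Cox6a1 (subunit VIa), Cox7a1 and Cox7a2 (subunit VIIa), Cox8b and Cox8a (subunit VIII), and Cox4i2 and Cox4i1 (subunit IV). They were taken by gene name from a table of 17911 genes, and all 8 of the 8 names were found. The first gene of each of the first 3 pairs is the heart and skeletal muscle form, and the second is the form found in most tissues; Cox4i2 is the low-abundance form of subunit IV known from lung. RNA had been sequenced from whole hearts of untreated wild-type C57Bl6/J mice, 4 females and 4 males, 1 heart a library, in a study of the RNA helicase DDX3X in female heart development. The age is written as 4 weeks in the design text and as 4 to 6 weeks in the protocol, and all 8 hearts carry batch label 1. The female hearts are numbered 1, 2, 3 and 4 and the male hearts 1, 3, 4 and 5, as in the labels. With a single age, a change of isoform over postnatal growth was outside the design; the comparison that the design allows is female against male.

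Cytochrome c oxidase takes electrons from cytochrome c, passes them to oxygen and pumps protons across the inner mitochondrial membrane. Its catalytic core is encoded by the mitochondrial genome, and a ring of small subunits, encoded in the nucleus, surrounds that core and modulates its activity. Several of the small subunits exist in tissue forms. In rodent heart and skeletal muscle the muscle forms of subunits VIa, VIIa and VIII replace the widely expressed forms as the muscle matures after birth. Cox7a1 and Cox8b are also abundant in brown fat, and Cox8b is a pseudogene in humans. Cox4i2 is induced or stabilised at low oxygen in some tissues and is known from lung and from vascular mural cells.

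The 3 muscle-form genes all lay on chromosome 7 (mm10, the build named in the submitters' processing notes; positions from the GENCODE annotation of the same build, both ends included). Cox6a2 spanned chr7:128205435-128206387 on the minus strand with 3 exons, Cox7a1 spanned chr7:30184144-30186078 on the plus strand with 4 exons, and Cox8b spanned chr7:140898945-140900446 on the minus strand with 2 exons. Their partners were spread over other chromosomes. Cox6a1 was at chr5:115345642-115348981 (minus strand), Cox7a2 at chr9:79755361-79759878 (minus strand) and Cox8a at chr19:7215153-7217616 (minus strand). Cox4i1 was at chr8:120668222-120674207 and Cox4i2 at chr2:152754173-152765037, both on the plus strand. All 8 are annotated as protein-coding.

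The partners differed enough in sequence to be counted apart. Over an alignment of the coding sequences, 62.2% of positions were identical between Cox4i2 and Cox4i1, 58.9% between Cox7a1 and Cox7a2, 56.2% between Cox6a2 and Cox6a1, and 52.1% between Cox8b and Cox8a. No stretch of 31 bases was shared between the transcripts of any of the 4 pairs. Stretches shared with other genes were more frequent in some members. In Cox4i1, 12.9% of the 31-base stretches were also found in other genes, most of them in Emc8. Of the 31-base stretches of Cox6a1, 18.5% also occur in a processed pseudogene that is not among the genes of the table, so its counts are uncertain to that extent. Exons of Cox4i1 overlap those of Emc8 on the opposite strand by 154 bases, and exons of Cox6a2 overlap those of Itgad on the opposite strand by 70 bases; whether strand was used in counting is not given in the sources used here. Itgad averaged 27.4 normalized reads over the 8 hearts and Emc8 averaged 1523, against 64893 for Cox6a2 and 89477 for Cox4i1.

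The DNA just upstream of the start sites is shown for the Cox7a and Cox8 pairs, because the Cox7a share was the one without overlap between the sexes below and because Cox7a1 and Cox8b varied together over hearts. The sequences are from RefSeq (GRCm38.p6), which held promoter entries for 5 of the 8 genes (Cox6a1 is the fifth), and they end at the base before the first annotated start; each reads 5′ to 3′ on the gene's own strand, and capitals mark CG dinucleotides.
Cox7a1 (muscle form), chr7:30183921-30184143, plus strand: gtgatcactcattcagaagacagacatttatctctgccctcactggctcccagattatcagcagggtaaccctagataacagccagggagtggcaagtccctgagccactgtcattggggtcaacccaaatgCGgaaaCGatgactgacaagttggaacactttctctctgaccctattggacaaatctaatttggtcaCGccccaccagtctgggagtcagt
Cox7a2 (widely expressed form), chr9:79759879-79760103, minus strand: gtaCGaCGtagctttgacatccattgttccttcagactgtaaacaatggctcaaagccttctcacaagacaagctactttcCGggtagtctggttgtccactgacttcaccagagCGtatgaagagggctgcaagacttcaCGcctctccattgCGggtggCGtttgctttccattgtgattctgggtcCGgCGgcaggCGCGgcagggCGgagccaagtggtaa
Cox8b (muscle form), chr7:140900447-140900696, minus strand: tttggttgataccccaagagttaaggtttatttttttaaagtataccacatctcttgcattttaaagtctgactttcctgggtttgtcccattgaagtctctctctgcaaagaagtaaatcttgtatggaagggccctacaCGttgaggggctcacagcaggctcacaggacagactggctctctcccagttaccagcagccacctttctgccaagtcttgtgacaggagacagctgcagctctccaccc
Cox8a (widely expressed form), chr19:7217617-7217866, minus strand: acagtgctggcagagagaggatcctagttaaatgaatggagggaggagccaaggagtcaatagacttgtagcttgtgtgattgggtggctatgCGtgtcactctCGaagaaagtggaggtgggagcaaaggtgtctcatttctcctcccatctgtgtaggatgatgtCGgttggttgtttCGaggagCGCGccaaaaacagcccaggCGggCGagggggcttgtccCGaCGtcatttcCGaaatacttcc

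The stretches of the muscle forms held few CG dinucleotides. In the 250 bases upstream of the RefSeq start there was 1 in Cox8b and 4 in Cox7a1, whereas there were 11 in Cox8a, 14 in Cox7a2 and 26 in Cox6a1; the median over 32851 promoters of the same length was 6. Fixed motifs were searched on both strands of the stretch that ends before the first annotated start. That stretch held 227 bases in Cox6a1, 223 in Cox7a1, 225 in Cox7a2 and 250 in Cox8a and in Cox8b. The shares over all promoters are for 250 bases, so matches next to the RefSeq start could be missed in the shorter stretches. The motif of NRF1 (GCGC, any base, TGCGC), a factor known to act on many respiratory-chain genes, matched in 2 places in Cox6a1 and in none of the other 4, against 3.74% of all promoters with a match. A MEF2 site matched in none of the 5 and in 2.92% of all promoters, TATAAA in none and in 12.4%, and CCGGAAG, the core bound by ETS factors, in none and in 6.91%. CANNTG, the E-box, was present in 4 of the 5 and in 66.2% of all promoters, and GGGCGG, a GC box, in Cox6a1 and Cox7a2 and in 32.7% of all promoters. These are matches of letters in a short window.

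The libraries held between 51.7 and 66.3 M assigned reads in female hearts and between 55.0 and 75.7 M in male hearts. A value below is the deposited read count divided by the heart's size factor and is called a normalized read count. The members were deeply covered. Together they took 0.351% to 0.384% of a heart's reads, and only Cox4i2, with 353 to 569 reads a heart, had fewer than 3990 reads in any heart. Over all genes, counting error covers little of the spread. Counts of hearts of 1 sex differed by 8.34 to 18.8 times the sampling variance (chi-square per degree of freedom over all genes), and no heart looked like a second deposit of another. For the isoform shares below, the same measure ran from 2.04 to 31.3, so counting error weighed more in some of them. The protocol has the hearts extracted individually.

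By normalized read count, Cox4i1 was in place 53 of the 17911 genes, Cox6a2 in place 89, Cox7a1 in place 205, Cox8b in place 266, Cox7a2 in place 521, Cox8a in place 1507, Cox6a1 in place 2077 and Cox4i2 in place 9840. Levels of different genes were compared per kilobase of exon (union of all annotated exons), as mean ± SD over all 8 hearts. Cox6a2 stood first with 95431 ± 4680 normalized reads per kilobase, followed by Cox8b with 72163 ± 3276. Cox7a1 followed with 58106 ± 3699 and Cox4i1 with 57727 ± 2087, and these 2 overlapped, with Cox7a1 above Cox4i1 in 5 of 8 hearts. The widely expressed forms came next, Cox7a2 at 15326 ± 593, Cox8a at 9894 ± 429 and Cox6a1 at 6552 ± 330, and Cox4i2 was last at 540 ± 43.8. Apart from Cox7a1 and Cox4i1, no 2 neighbours in this order overlapped in their ranges over the hearts. The place of Cox4i1 and the order of Cox7a1 and Cox8b depended on the length used. With the length of the principal transcript of each gene, Cox4i1 stood first at 120103 ± 4341, above Cox6a2 at 95431 ± 4680 in all 8 hearts. Cox7a1 (79101 ± 5036) and Cox8b (72163 ± 3276) came next. Their ranges overlapped, but Cox7a1 was above Cox8b in all 8 hearts, whereas by the union of exons Cox8b was above Cox7a1 in all 8. The order of the other 4 stayed as above.

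**Figure D1:**
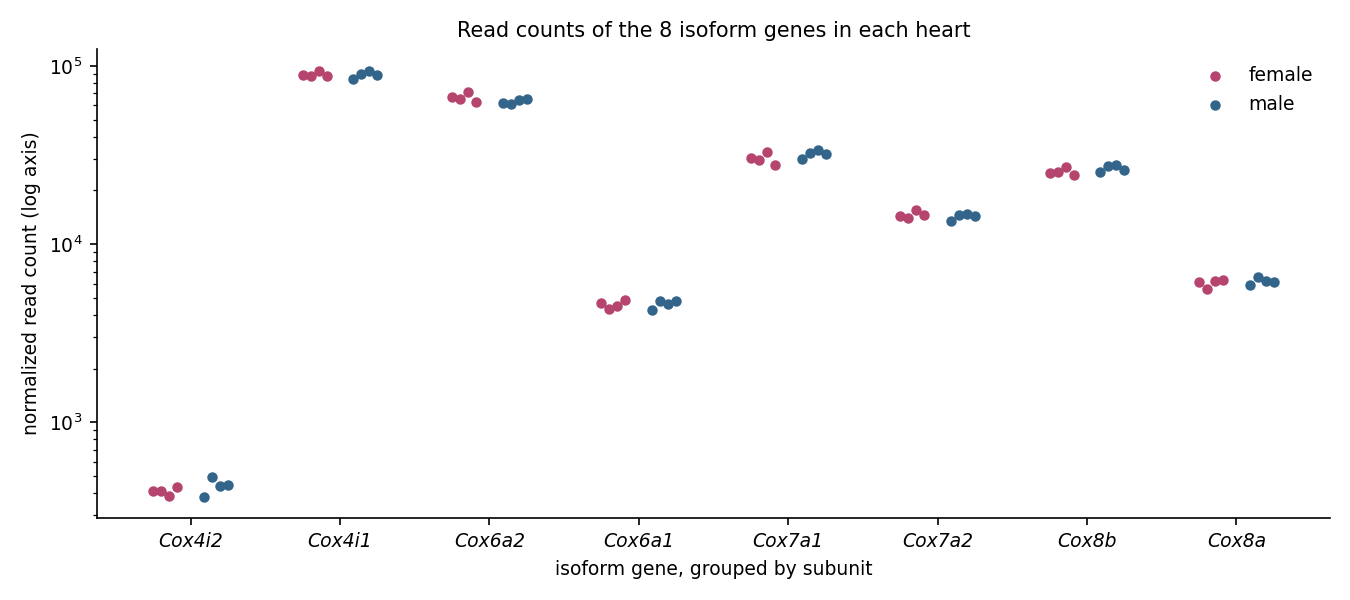
Normalized read counts (log axis) of the 8 isoform genes in each heart, with female hearts to the left of male hearts within each gene and 1 point a heart. Within each of the subunits VIa, VIIa and VIII the muscle form is above the widely expressed form in all 8 hearts, and Cox4i2, at 383 to 490 normalized reads, is far below Cox4i1, at 84366 to 94151.

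In each heart the muscle form supplied most of the reads of its pair, and the extent differed by subunit. The share of Cox6a2 in the reads of Cox6a2 plus Cox6a1 was 93.4%, 93.9%, 94.1% and 92.8% in female hearts 1 to 4, and 93.5%, 92.7%, 93.4% and 93.1% in male hearts 1, 3, 4 and 5. Nearly all reads of the Cox6a pair were those of the muscle form in both sexes, and the sexes overlapped. The mean share was 93.6% ± 0.549 in female hearts and 93.2% ± 0.336 in male hearts (SD, n = 4 each), a difference of 0.369 percentage points (two-sided exact permutation test over the 70 assignments of hearts, p = 0.257; 0.457 after Benjamini-Hochberg adjustment over the 4 pairs). Differences between single female and male hearts ran from -0.668 to 1.35 points; this range is also the 97.1% interval of the exact test.

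For subunit VIII the share of Cox8b in Cox8b plus Cox8a was 80.3%, 81.8%, 81.2% and 79.5% in female hearts 1 to 4, and 81.2%, 80.8%, 81.6% and 80.9% in male hearts 1, 3, 4 and 5. The lowest and the highest of the 8 were both female. The means were 80.7% ± 1.00 in female hearts and 81.1% ± 0.370 in male hearts (SD, n = 4 each), with a difference of -0.405 points, a range over pairs of hearts of -2.06 to 1.04 points and an exact permutation p of 0.514 (adjusted 0.514).

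Subunit VIIa kept the largest contribution of the widely expressed form among the 3 subunits with a muscle form. The share of Cox7a1 in Cox7a1 plus Cox7a2 was 67.8%, 67.7%, 68.0% and 65.8% in female hearts 1 to 4, and 68.9%, 68.9%, 69.5% and 69.0% in male hearts 1, 3, 4 and 5. Every female heart lay below every male heart. The means were 67.3% ± 1.03 in female hearts and 69.1% ± 0.284 in male hearts (SD, n = 4 each), a difference of -1.77 points (range over pairs of hearts -3.72 to -0.951). The exact permutation p was 0.0286, the smallest that 4 against 4 hearts can give, and it did not pass after adjustment over the 4 pairs (0.114). Adjustment could not bring 1 pair alone at this smallest p under 0.05, so the adjusted value does not decide for or against a difference. Female heart 4 was the lowest of all, and without it the difference was -1.26 points. The separation depended on which genes made up the denominator. Cox7a2l, a related gene, was itself lower in every female heart (9510.2 to 10090.3 normalized reads) than in every male heart (10162 to 10569). It did not pass the test over all genes (limma adjusted p = 0.246). With Cox7a2l added, the share was 55.9%, 55.3%, 56.2% and 53.3% in female hearts 1 to 4, and 55.8%, 56.7%, 57.1% and 56.2% in male hearts 1, 3, 4 and 5, the sexes overlapped, and the exact permutation p was 0.143.

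Cox4i2 was a trace of subunit IV. Its share in Cox4i2 plus Cox4i1 was 0.462%, 0.467%, 0.410% and 0.490% in female hearts 1 to 4, and 0.451%, 0.539%, 0.467% and 0.498% in male hearts 1, 3, 4 and 5. The means were 0.457% ± 0.0339 in female hearts and 0.489% ± 0.0388 in male hearts (SD, n = 4 each), and the difference of -0.0315 points was within the spread (exact permutation p = 0.343, adjusted 0.457).

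**Figure D2:**
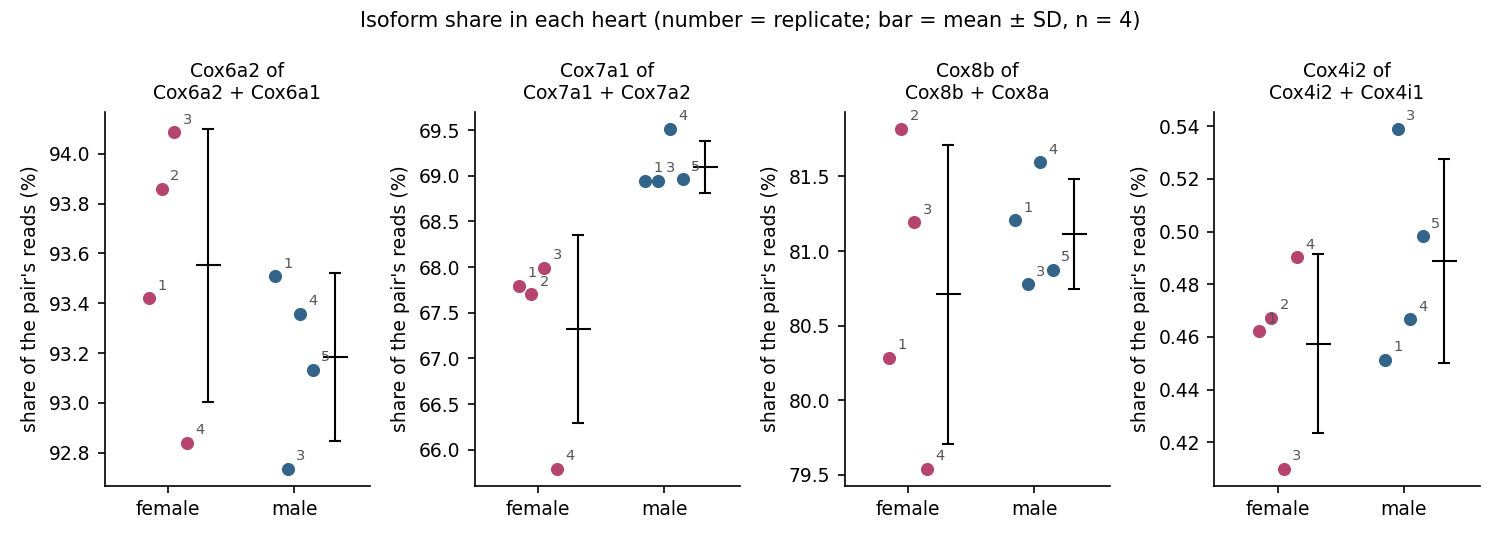
Share of the first-named gene in the reads of each pair, in percent, for 4 female (left) and 4 male (right) hearts; each panel has its own axis, which does not start at 0, points are hearts with their replicate number, and the bar beside them is the mean ± SD. Only in the Cox7a panel are the sexes apart, at 65.8% to 68.0% in females and 68.9% to 69.5% in males.

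Per unit of length the shares shifted but kept their order. Divided by exon length, Cox6a2 made up 93.6% ± 0.453 of its pair over the 8 hearts, Cox8b 87.9% ± 0.504, Cox7a1 79.1% ± 0.901 and Cox4i2 0.926% ± 0.0735 (SD, n = 8). Divided by the length of the principal transcript, they made up 92.2% ± 0.540, 86.6% ± 0.550, 78.2% ± 0.927 and 0.485% ± 0.0386. The depth allowed a 95% Wilson interval no wider than ± 0.217 points for a Cox6a2 share, ± 0.504 for a Cox7a1 or Cox8b share and ± 0.0484 for a Cox4i2 share in any heart, covering counting error only. Hearts of 1 sex differed by more than that: the chi-square per degree of freedom was 31.3 among females and 13.4 among males for the Cox6a pair and 17.8 among females and 2.04 among males for the Cox7a pair. It was 18.5 among females and 3.36 among males for the Cox8 pair, and 2.12 among females and 3.13 among males for the Cox4 pair.

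None of the 8 genes passed the test between females and males. Of all 17911 genes, 208 were called (1.16%; limma on log2(value + 1), Benjamini-Hochberg adjusted p under 0.05), with 85 higher (0.475%) and 123 lower (0.687%) in females. Among the members 0 of 8 were called, 0 of 8 had an unadjusted p under 0.05 (16% of all genes did), and 0 of 8 had values of the sexes that did not overlap (9.35% of all genes). Their median log2 fold change was -0.022, with 3 above 0 and 5 below, against 0.0023 over all genes. Tests by DESeq2, edgeR and limma-voom called 0 of the 8 as well.

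Cox6a2, the muscle form of the subunit at which ATP and ADP are known to act on the bovine heart enzyme, had 66469.6, 65597, 71264 and 63026 normalized reads in female hearts 1 to 4, and 61621, 61313, 64534 and 65317 in male hearts 1, 3, 4 and 5. Female heart 3 was the highest and female heart 4 lay within the male range. The log2 fold change, female over male, was 0.075 ± 0.040 (SE), a ratio of 1.05 with a 95% interval of 0.991 to 1.12 (limma adjusted p = 0.393).

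Cox7a1 had 30276, 29485, 32841 and 27897 normalized reads in female hearts 1 to 4, and 30053, 32505, 33784 and 31852 in male hearts 1, 3, 4 and 5. Female heart 3 was above 3 of the male hearts and male heart 1 was below 2 of the female hearts, so the gene's own level overlapped between the sexes. The log2 fold change was -0.091 ± 0.050 (SE), a ratio of 0.939 with a 95% interval of 0.871 to 1.01 (limma adjusted p = 0.407).

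Cox8b had 25042, 25244, 26903 and 24322 normalized reads in female hearts 1 to 4, and 25506, 27293, 27639.8 and 25878 in male hearts 1, 3, 4 and 5. Here too female heart 3 reached into the male range. The log2 fold change was -0.067 ± 0.039 (SE), a ratio of 0.955 with a 95% interval of 0.900 to 1.01 (limma adjusted p = 0.438).

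The widely expressed forms differed less between the sexes than those 3 in the fitted fold change. Cox4i1 averaged 89593 ± 3118 normalized reads in female hearts and 89360.3 ± 3828 in male hearts (SD, n = 4 each), with a log2 fold change of 0.0041 (limma adjusted p = 0.973). Cox7a2 averaged 14602 ± 601 in females and 14333 ± 566 in males (0.027; 0.792), Cox6a1 averaged 4577 ± 247 in females and 4622 ± 252 in males (-0.014; 0.923), and Cox8a averaged 6061 ± 305 in females and 6187 ± 247 in males (-0.030; 0.784). The 95% intervals of the ratio kept these 4 within 0.919 to 1.08. The signs of these 4 are within the error and turned under some settings given in the closing section. Cox4i2 averaged 411 ± 17.5 in females and 439 ± 44.0 in males, with the widest interval, 0.833 to 1.06 (log2 fold change -0.092 ± 0.079 SE; limma adjusted p = 0.625). The authors' deposited table gave a log2 fold change of 0.076 for Cox6a2, -0.089 for Cox7a1, -0.067 for Cox8b and -0.097 for Cox4i2, with the authors' adjusted p-values between 0.384 for Cox6a2 and 0.981 for Cox4i1 over the 8 members. In whole-heart RNA, fewer cells of a type and less RNA per cell cannot be told apart.

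**Figure D3:**
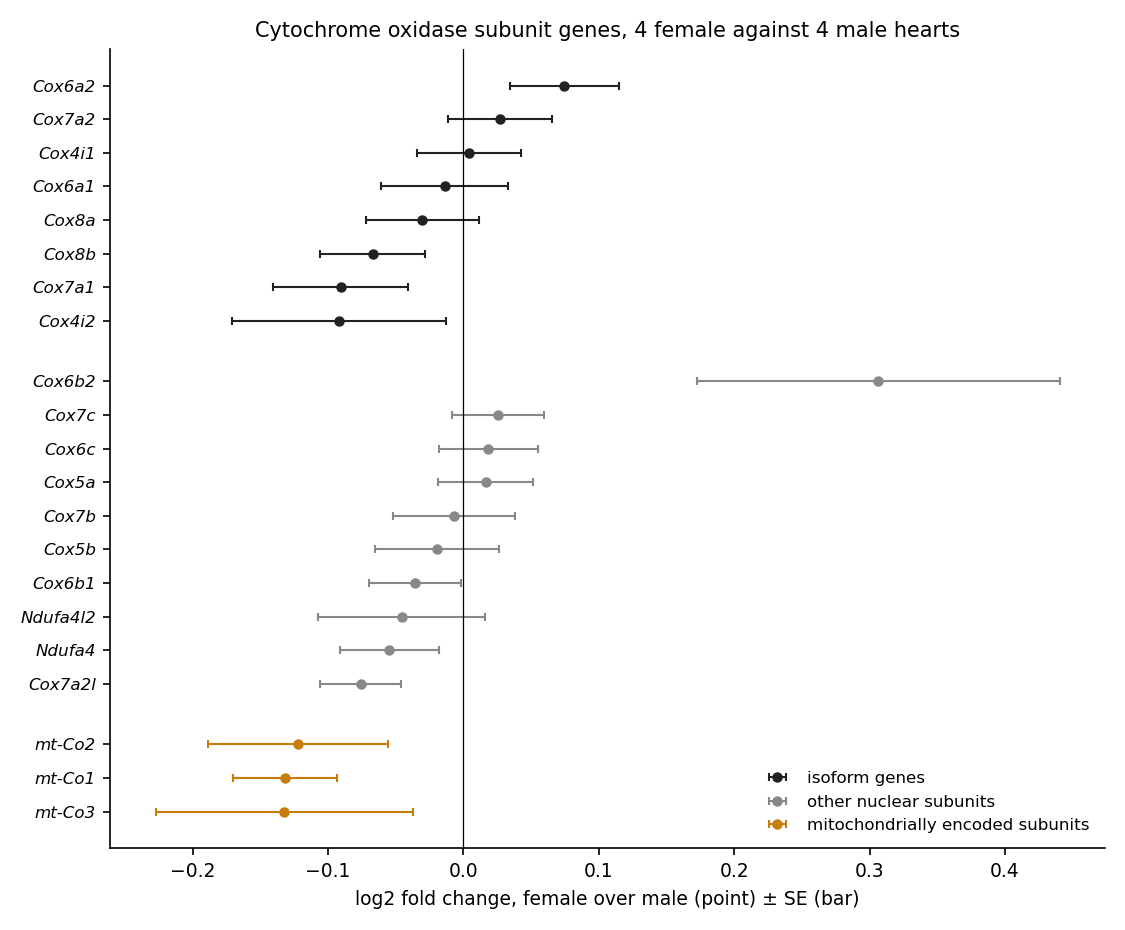
Log2 fold change, female over male, with its standard error (bar), from the fit over all genes. Shown are the 8 isoform genes, 10 other nuclear-encoded subunits or related genes, and 3 mitochondrially encoded subunits. Cox6a2 lies above 0 at 0.075 while Cox7a1 and Cox8b lie below at -0.091 and -0.067; none of the 21 passed the adjusted threshold.

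The muscle forms did not lie on the same side, which made their ratios to each other a second readout. A ratio of 2 genes within a heart does not depend on the size factor. All 28 ratios among the 8 genes were compared after the levels had been seen, and 6 of them had no overlap between the sexes. Each of the 6 had an exact permutation p of 0.0286, the smallest possible. After adjustment over the 28 each was 0.133, so 0 passed. With only 6 ratios at the smallest p, none could have passed this adjustment. Over all ratios between 2 genes with a mean of at least 100 normalized reads and reads in every heart, 10.8% had no overlap. The 28 ratios reuse the same 8 genes, and all 6 without overlap set Cox7a1 or Cox8b against Cox6a2, Cox4i1 or Cox7a2, so they are not 6 separate observations.

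Cox6a2 gave 2.20, 2.22, 2.17 and 2.26 reads for each read of Cox7a1 in female hearts 1 to 4, and 2.05, 1.89, 1.91 and 2.05 in male hearts 1, 3, 4 and 5. The female hearts were all above the male hearts, with a mean of 2.21 ± 0.0385 in female hearts and 1.97 ± 0.0885 in male hearts (SD, n = 4 each), 1.12-fold. Against Cox8b the ratio was 2.65, 2.60, 2.65 and 2.59 in female hearts 1 to 4, and 2.42, 2.25, 2.33 and 2.52 in male hearts 1, 3, 4 and 5, again without overlap, and the fold was 1.10. Leaving out any 1 heart kept the log2 difference of the first ratio between 0.14 and 0.18 and of the second between 0.11 and 0.17, and with total reads as a covariate they were 0.14 and 0.12. With any 1 female heart left out, the second ratio gave an exact permutation p of 0.057. The sexes were still apart, and the log2 difference was 0.136 to 0.147, against 0.141 with all 8 hearts. In each of these cases another assignment of the hearts gave a mean difference at least as large. With any 1 male heart left out, the exact permutation p of this ratio stayed at 0.0286. Total reads are named here because they were fewer on average in females, 61.4 ± 6.81 M in female hearts against 68.9 ± 9.60 M in male hearts (SD, n = 4 each).

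The other 4 ratios without overlap set Cox7a1 and Cox8b against 2 widely expressed genes. Cox7a1 over Cox4i1 was 0.320 to 0.349 in females and 0.356 to 0.361 in males (0.937-fold), and Cox8b over Cox4i1 was 0.279 to 0.287 in females and 0.290 to 0.302 in males (0.952-fold). Cox7a1 over Cox7a2 was 1.92 to 2.12 in females and 2.22 to 2.28 in males (0.922-fold), and Cox8b over Cox7a2 was 1.68 to 1.80 in females and 1.80 to 1.88 in males (0.937-fold). Cox7a1 over Cox8b itself overlapped, at 1.15 to 1.22 in females and 1.18 to 1.23 in males (0.984-fold, exact permutation p = 0.371, adjusted 0.557). The table also held 10 other nuclear-encoded subunits or related genes. Set against these, Cox6a2 was relatively higher in females for 9 of the 10, with 3 apart between the sexes, Cox7a2l among them. Cox7a1 was relatively lower in females for 10 of the 10, with 4 apart. Cox8b was relatively lower for 9 of the 10, with 3 apart. Against every other gene with a mean of at least 100 normalized reads, the sexes were apart in 13% of the ratios of Cox6a2, 7.55% of those of Cox7a1 and 9.65% of those of Cox8b. The ratios of a gene share their numerator and its partners vary together, so the counts are given as a description.

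**Figure D4:**
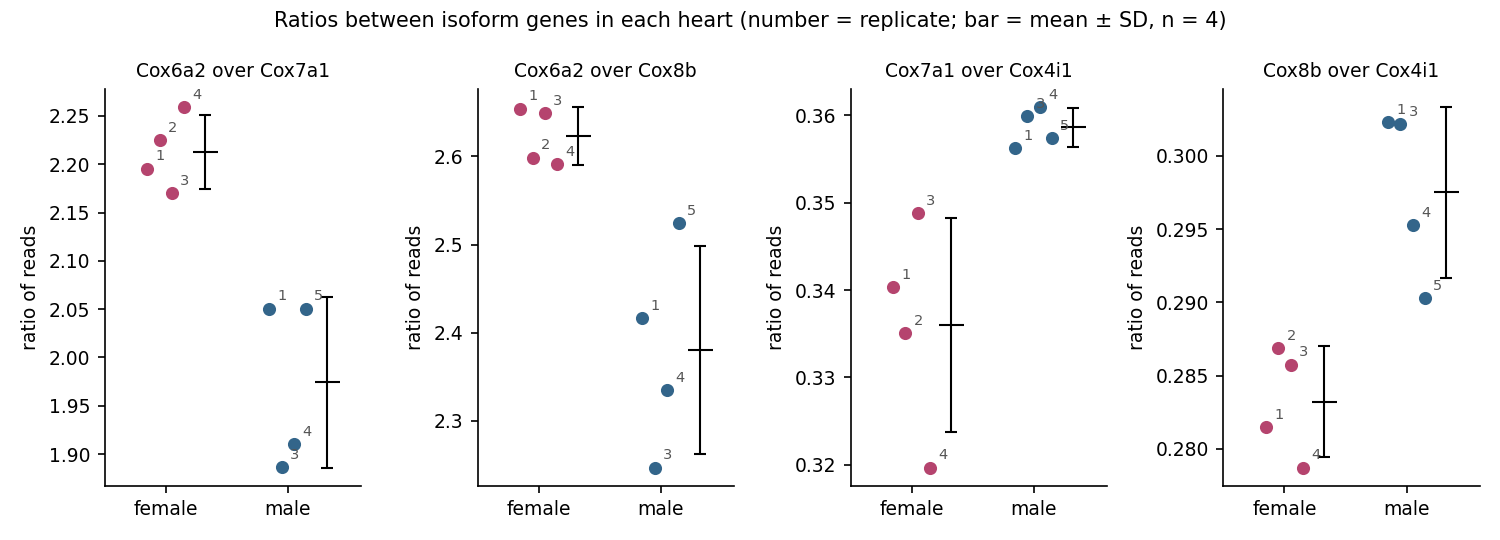
Ratio of reads between pairs of isoform genes in 4 female (left) and 4 male (right) hearts; points are hearts with their replicate number, the bar is the mean ± SD, and the axes do not start at 0. Cox6a2 over Cox7a1 is 2.17 to 2.26 in females and 1.89 to 2.05 in males, while the ratios of Cox7a1 and of Cox8b to Cox4i1 are lower in each female heart than in each male heart.

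Over the 8 hearts, Cox7a1 and Cox8b had the highest Pearson r of the 28 pairs of members, while other measures of likeness put Cox4i1 and Cox7a1 level with or above them. The Pearson r of Cox7a1 and Cox8b was 0.954 (exact permutation p = 0.00035; 0.0097 adjusted over the 28 pairs) and their Spearman rho was 0.905 (exact permutation p = 0.0046; adjusted 0.064). Without female heart 4 and male heart 4, the hearts farthest from the median of Cox7a1, r was 0.899, and with each sex's mean taken out it was 0.936. Cox4i1 and Cox7a2 followed with an r of 0.916 (exact permutation p = 0.0024, adjusted 0.033) and a rho of 0.833 (exact permutation p = 0.015, adjusted 0.144). Without female heart 3 and male heart 1, r was 0.743, and with each sex's mean taken out it was 0.937. For Cox4i1 and Cox7a1, r was 0.777 (exact permutation p = 0.023; adjusted 0.163) and rho was 0.905 (exact permutation p = 0.0046; adjusted 0.064); r was 0.904 without female heart 3 and male heart 1 and 0.938 with each sex's mean taken out. Cox7a1 with Cox8b and Cox4i1 with Cox7a2 were the 2 pairs that passed on Pearson's r; 0 of 28 passed on Spearman's rho. All values of a heart share its size factor, and 24 of the 28 coefficients were positive.

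Cox6a2 gave low coefficients with Cox7a1 and Cox8b across the 8 hearts and higher ones once each sex's mean was taken out. The r of Cox6a2 with Cox7a1 was 0.277 (exact permutation p = 0.515; adjusted 0.730) over the 8 hearts, with a rho of 0.143 (exact permutation p = 0.752; adjusted 0.810), and it was 0.824 with each sex's mean taken out. For Cox6a2 with Cox8b it was 0.116 (exact permutation p = 0.796; adjusted 0.885) with a rho of -0.167 (exact permutation p = 0.703; adjusted 0.788), and 0.627 with the sex means out.

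**Figure D5:**
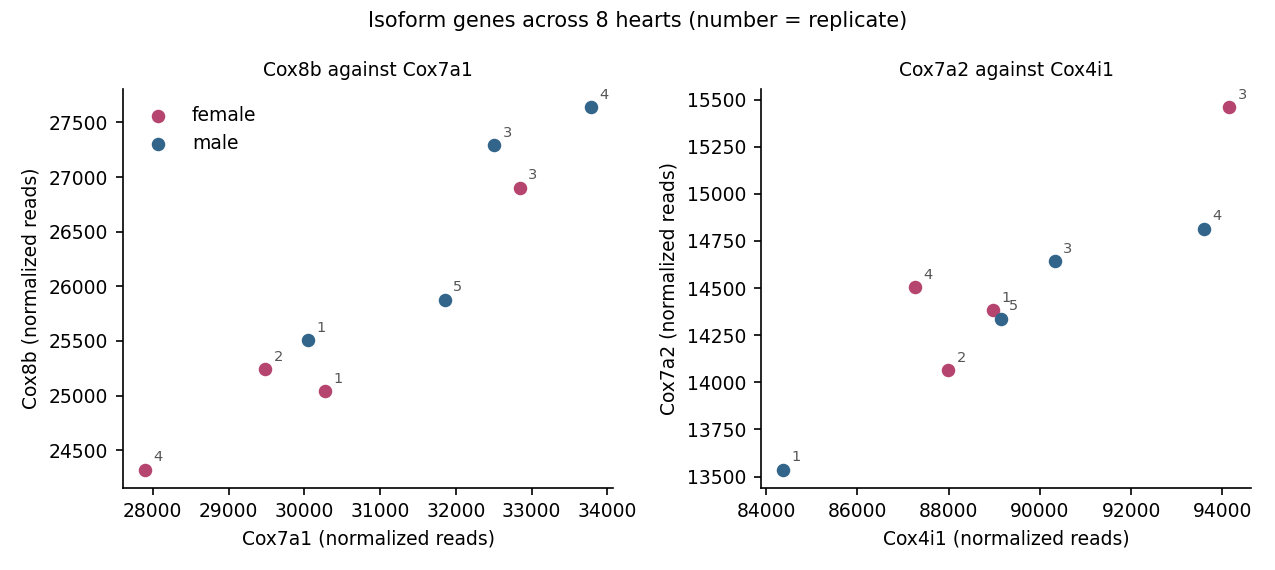
Normalized read counts of Cox8b against Cox7a1 (left) and of Cox7a2 against Cox4i1 (right), 1 point a heart with its replicate number. Cox7a1 and Cox8b are both lowest in female heart 4 and both highest in male heart 4.

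The genes whose values followed each member most closely over the 8 hearts, with each sex's mean taken out, were taken from 11862 named protein-coding genes with a mean of at least 100 normalized reads. For Cox7a1 they were Cox14, a cytochrome oxidase assembly factor (r = 0.988), Tmem242 (0.986) and Prdx2, a peroxiredoxin (0.983). For Cox8b they were Mlst8, a subunit of the mTOR complexes (0.979), Cox5b, another subunit of the enzyme (0.978), and Eef1b2, a translation elongation factor (0.977). For Cox6a2 they were Macrod1 (0.996), Inppl1, an inositol phosphatase (0.986), and Mccc1, a subunit of a leucine-breakdown enzyme (0.984). For Cox4i1 they were Ndufb11, Ndufs6 and Ndufa2, all subunits of complex I (0.982, 0.978 and 0.978), and for Cox7a2 they were Atp5j2, a subunit of ATP synthase (0.985), Txn2, the mitochondrial thioredoxin (0.984), and Uqcr10, a subunit of complex III (0.978). Those of Cox6a1 (Plekhg2, Tmem204 and Abhd13, 0.974 to 0.976) and of Cox8a (Fbf1, Snx17 and Zkscan3, 0.961 to 0.966) held no respiratory-chain gene. The closest genes of Cox6a2, given above, and of Cox4i2, given below, held none either. With 8 hearts and this many genes searched, coefficients of this size are the top of a long list.

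Cox4i2 is treated with the vascular genes because it is known from mural cells. Its closest genes were Nudt17 (r = 0.982), Samd4b (0.981) and Lrrc8c (0.962). Of 10 pericyte genes 0 rose and 0 fell, and their summed level was 79293 to 85760 normalized reads in females and 78012 to 82405 in males. Of the 10 genes, 6 lay above 0 and 4 below, with a median log2 fold change of 0.014. Notch3, a receptor of mural cells, had the smallest p of the list and averaged 4276 ± 288 in female hearts and 3885 ± 93.1 in male hearts (SD, n = 4 each; limma adjusted p = 0.166). Higd1b, next in p and on the other side, averaged 323 ± 21.5 in female hearts and 373 ± 27.2 in male hearts (SD, n = 4 each; limma adjusted p = 0.231). Of 14 genes of the oxygen response, including reported regulators of Cox4i2, 0 rose and 0 fell, with a median log2 fold change of 0.016. The smallest p among them was that of Bnip3, a mitophagy receptor induced at low oxygen, at 8088 ± 1025 in female hearts and 6954 ± 307 in male hearts (SD, n = 4 each; limma adjusted p = 0.262).

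The rest of the enzyme also gave no call. The table held 10 other nuclear-encoded subunits or related genes, with Cox7a2l and Ndufa4l2 among them (12 were listed; Cox7b2 and Cox8c are not analysed here). Of these 10, 0 rose and 0 fell, and the median log2 fold change was -0.013. Cox7a2l had the smallest p, at 9831 ± 248 normalized reads in female hearts and 10359 ± 185 in male hearts (SD, n = 4 each), with a log2 fold change of -0.076 (limma adjusted p = 0.246). Cox6b2, the testis form of subunit VIb, was at a low level of 133 ± 17.7 in females and 108 ± 14.1 in males (0.31; 0.288). Of the 3 mitochondrially encoded subunits, 0 passed and all 3 lay below 0, with a median of -0.13. The main catalytic subunit mt-Co1 averaged 4.76 ± 0.144 M normalized reads in female hearts and 5.21 ± 0.185 M in male hearts (SD, n = 4 each), a log2 fold change of -0.13 (limma adjusted p = 0.127), and its values did not overlap between the sexes. In the same libraries mt-Co2 averaged 1424 ± 98.8 in females and 1552 ± 135 in males, and mt-Co3 averaged 1600 ± 222 in females and 1746 ± 141 in males; why these are so far below mt-Co1 was not tested.

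Of 27 genes for assembly of the enzyme and for delivery of its copper and haem (30 were listed; Sco2, Coa8 and Pet117 are not analysed here), 0 rose and 0 fell, 19 lay below 0, and the median log2 fold change was -0.040 against 0.0023 over all genes. The smallest p-values were those of Cmc2 (log2 fold change -0.17, limma adjusted p = 0.127), Taco1, the translational activator of mt-Co1 (-0.12; 0.212), the copper chaperone Sco1 (-0.094; 0.256) and Higd2a (-0.085; 0.258). Cycs, the somatic cytochrome c, averaged 28772 ± 1159 normalized reads in female hearts and 30257 ± 946 in male hearts (SD, n = 4 each; limma adjusted p = 0.354). Of 12 regulators of mitochondrial and muscle genes, 0 rose, 0 fell, 9 lay above 0 and the median was 0.061. Gabpa, the DNA-binding subunit of NRF2, averaged 4218 ± 103 in females and 4001 ± 102 in males (limma adjusted p = 0.271), and Mef2c, a muscle transcription factor, averaged 4355 ± 285 in females and 4105 ± 99.6 in males (limma adjusted p = 0.391).

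The tissue label held against its markers. The 12 cardiomyocyte genes summed to 5.15 to 5.60 M normalized reads in females and 4.96 to 5.42 M in males. Of the 12, 1 rose and 0 fell, with 6 above 0 and 6 below. The calcium-release channel Ryr2 rose, at 128251 ± 1941 in female hearts and 111494 ± 6437 in male hearts (SD, n = 4 each; limma adjusted p = 0.034). Actc1, next in p, lay the other way, at 499604 ± 18282 in female hearts and 568996 ± 34788 in male hearts (SD, n = 4 each; limma adjusted p = 0.080). The slow, fetal-type myosin Myh7 made up 1.17%, 1.21%, 1.19% and 1.58% of Myh7 plus Myh6 reads in female hearts 1 to 4, and 1.39%, 1.32%, 1.30% and 1.43% in male hearts 1, 3, 4 and 5. Female heart 4, with the lowest Cox7a1 share, had the highest Myh7 share. Female hearts 1 to 3 went the other way, with a lower Myh7 share and a lower Cox7a1 share than every male heart. A relation between the 2 shares was not tested. The fetal troponin Tnni1 was at most 0.0664% of Tnni1 plus Tnni3 in any heart. Skeletal muscle also uses the muscle forms, and 7 of 12 skeletal muscle genes were in the table, summing to 589 to 1211 normalized reads in females and 816 to 1251 in males, with Myh1, Myh2, Myh4, Myod1 and Myf6 not analysed here; 0 of the 7 rose or fell.

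Cox7a1 and Cox8b are also brown fat genes, so the markers of that tissue stand beside them. The 4 of 6 brown fat genes in the table (Elovl3 and Kng2 are not analysed here) summed to 1736, 1334, 1422 and 1348 normalized reads in female hearts 1 to 4, and 1763, 2689, 1554 and 2074 in male hearts 1, 3, 4 and 5, and 0 of the 4 rose or fell. The defining gene Ucp1, the uncoupling protein of brown fat, had 276, 6.79, 89.4 and 29.2 in female hearts 1 to 4, and 157, 714, 79.3 and 348 in male hearts 1, 3, 4 and 5. The heart with the most Cox7a1 and Cox8b, male heart 4, had 79.3 of Ucp1, less than female hearts 1 and 3. Its Zic1 (8.52) was below every female heart, while its Cidea (1431) and Otop1 (34.9) were above every female heart. Otop1, another gene of the list, averaged 12.9 ± 10.9 in female hearts and 35.9 ± 19.4 in male hearts (SD, n = 4 each; limma adjusted p = 0.348). Cidea, a lipid-droplet protein of brown fat, made up most of each sum. It had 1295 in female heart 2, where Ucp1 was 6.79, and 1392 in female heart 1, where Ucp1 was 276. The sums therefore hold a level of Cidea that was present with little Ucp1, and they do not measure brown fat content. Cidea averaged 1315 ± 51.7 in female hearts and 1644 ± 199.98 in male hearts (SD, n = 4 each; limma adjusted p = 0.080). Zic1, a transcription factor of brown fat, lay the other way, at 32.3 ± 6.28 in female hearts and 15.7 ± 9.80 in male hearts (SD, n = 4 each; limma adjusted p = 0.131). The part of brown fat in the Cox7a1 and Cox8b values was not tested.

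Markers of other cells differed as well. Of 10 macrophage genes 0 rose and 3 fell, C1qa, Csf1r and C1qb, and the list summed to 12984 to 15256 normalized reads in females and 15996 to 20006 in males, without overlap. Of 8 fibroblast genes 1 rose, Lum, and 0 fell, with sums of 82786 to 96122 in females and 88826 to 99080 in males. Of 8 endothelial genes, 6 smooth muscle genes, 6 white fat genes and 6 red cell genes, 0 rose and 0 fell. The endothelial genes summed to 58948 to 65080 in females and 59426 to 67250 in males. White fat genes summed to 1959 to 12053 in females and 2284 to 4825 in males, so single hearts carried different amounts of fat markers. Smooth muscle genes summed to 24669 to 28193 in females and 23107 to 30505 in males, and red cell genes to 14186 to 25189 in females and 14441 to 21865 in males. The part of these cells in the isoform values was not tested.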

How the data were processed

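Whole-heart RNA of 4 female and 4 male mice was analysed from the deposited table of 17911 genes. Its 8 deposited signal columns proved, from the values, to be counts of reads over a size factor for each heart (100% of values were whole multiples of 1 read, tolerance 0.001 reads), so whole reads were recovered. The same deposited table holds a log2 fold change and p-values computed by the authors. The build is mm10, per the submitters' processing notes; the sources used here do not give aligner, counter or strand setting. Per the labels' protocols the kit isolates small RNA, while the molecule is given as total RNA; the recovered reads sum to 51.7 to 75.7 M a heart.

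Values were tested with limma 3.58.1 (trend and robust, R 4.3.3) on log2(value + 1) over all 17911 genes and all 8 hearts, female minus male, with Benjamini-Hochberg adjustment and a threshold of 0.05; fold changes on this scale understate those of low genes. The count tests (edgeR 4.0.16, DESeq2 1.42.0) were run on the recovered reads as alternatives, and the fits were tested on simulated data. Shares and ratios used recovered reads, two-sided exact permutation tests and adjustment over 4 pairs or 28 ratios. Positions and lengths came from GENCODE for the same build. Members and gene lists were chosen with earlier results of these data known. Named were all 8 members, up to 4 genes of smallest p from each list, and the 3 genes most like each member; genes with values by heart outside this rule, and the ratios, were chosen after their values were seen. P-values measure the spread between these hearts. The labels also give library codes, in which female heart 4 and male heart 5 both carry number 5. Deviations of hearts with the same title number correlated at 0.19, -0.074 and -0.094, and of hearts with the same code number at 0.19, -0.074 and 0.19. Female and male hearts with unlike numbers ran from -0.25 to 0.28. So few pairs cannot settle whether the hearts were paired. No block was used in the main fit, and blocks were run as alternatives.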

Additional observations from a re-analysis of the deposited data

Results flagged for a closer look

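In groups of 4 hearts, a heart was set apart where its gap to the next was larger, as a part of the group's range, than Dixon's 95% critical value, which chance gives in about 1 of 20 groups; 24 groups were checked (8 values and 4 shares in each sex) and 3 were marked. In the Cox7a1 share, female heart 4 lay lowest at 65.8%, with the other females between 67.7% and 68.0%, and male heart 4 lay highest at 69.5%, with the other males between 68.9% and 69.0%. The gap of male heart 4 is large only against a narrow male range. In Cox8a, female heart 2 lay lowest at 5609 normalized reads, with the other females between 6149 and 6256. Female heart 4 had the fewest reads of the 8, 51.7 M.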

How the results depend on the processing

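No isoform gene was called in any of the 152 combinations of 8 genes and 19 settings (smallest adjusted p 0.190, Cox7a1 without female heart 3). Cox6a2 stayed higher in females and Cox7a1, Cox8b and Cox4i2 stayed lower in all 19 settings. The sign turned 12 times among the other 4: with hearts left out, fold changes ran from -0.023 to 0.027 for Cox4i1, -0.051 to 0.017 for Cox6a1, -0.00091 to 0.045 for Cox7a2 and -0.053 to 0.0066 for Cox8a on the log2 scale. With a replicate block by title numbers Cox6a1 was at 0.037 and Cox8a at 0.0016, and with a replicate block by library code numbers at 0.014 and 0.011. The count of called genes was 208, against 690 with DESeq2 (204 shared), 26 with the code-number block (18 shared) and 145 with the title-number block, and 77 to 516 with 1 heart left out (77, 110 and 129 without female 2, 3 and 4; 137, 94, 84 and 516 without male 1, 3, 4 and 5). The 4 shares kept their direction throughout. In the settings with a test 0 passed adjustment, which 1 share alone at the smallest possible p could not do. As mean differences within numbers 1, 3 and 4, the replicate block gave -1.94 points for Cox7a1 and -0.855 for Cox8b (-0.405 without it). It gave 0.249 for Cox6a2 (0.369 without it) and -0.0316 for Cox4i2. With 1 heart left out, differences ran from -1.99 to -1.26 points for Cox7a1, 0.190 to 0.606 for Cox6a2, -0.775 to -0.015 for Cox8b and -0.044 to -0.015 for Cox4i2. With any 1 female heart left out, Cox6a2 over Cox8b gave an exact permutation p of 0.057 in place of 0.029. The sexes were still apart in that ratio, with a log2 difference of 0.136 to 0.147. The principal-transcript lengths, Cox6a2 ratios and their settings were chosen after seeing the data. Causes were not tested.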
